A study of Homo sapiens with 3 samples.

Results

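Tubulin transcripts of primitive neural progenitor cells (pNPCs) were taken as the 10 alpha and beta tubulin genes TUBB3, TUBB2B, TUBA1A, TUBB4A, TUBA1B, TUBA1C, TUBB, TUBB2A, TUBB4B and TUBB6, found by symbol among the 62754 genes of the deposited tables. Polyadenylated RNA was sequenced from wild-type pNPCs made from H1 human embryonic stem cells, an established line, as 1 group of 3 replicates with no second condition, so isotypes could be compared only with each other inside a library. All cultures were kept in a neural medium with the supplements N2 and B27-RA, FGF2, the GSK3 inhibitor CHIR99021, leukemia inhibitory factor, the TGF-beta receptor inhibitor SB431542 and the ROCK inhibitor Y-27632. The 3 replicates come from 1 cell line, and the labels do not tell whether each was a culture of its own. The p-values therefore measure only how these samples varied, and that variation may be technical.

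Microtubules are polymers of dimers of 1 alpha and 1 beta tubulin, and human cells choose both partners from small gene families. Many isotypes differ most in the acidic tail that ends the protein, where enzymes add and remove tyrosine, glutamate and glycine. TUBB3, TUBB2B and TUBA1A are linked to neurons and their precursors, and inherited changes in each disturb the migration of cortical neurons or the growth of axons. TUBB, TUBA1B and TUBB4B are used by nearly all dividing cells, while TUBB4A is known from mature brain and myelinating cells.

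All 10 genes were detected, which here means a level of 1 TPM or more in each of the 3 libraries (TPM, a unit that corrects reads for both transcript length and depth), as for 14418 of all genes. Together they held 345421, 318446 and 243800 expected counts in replicates 1, 2 and 3, or 0.997%, 0.829% and 0.812% of totals of 34658454, 38400092 and 30038114. Progenitor markers fitted the label in part, with 7 of 8 detected, among them SOX2 at 97.8, 46.3 and 63.4 TPM, while PAX6 was below detection at 0.13, 0.81 and 0.38 TPM. The 3 libraries differed from each other in marker levels. Neuron markers were detected for 13 of 16 genes. Of these 13, 10 had their highest TPM in replicate 1, against 25.5% of all detected genes. The list summed to 733, 408 and 337 TPM in replicates 1, 2 and 3, of which NEFM alone held 485, 241 and 176 TPM. Neural crest and mesenchyme markers were all lowest in replicate 1, 8 of 8, with sums of 629, 1328 and 987 TPM. The share of all detected genes that were lowest in replicate 1 is not given here. The median detected gene had a TPM in replicate 1 that was 0.898 times the mean of the other 2 libraries, so TPM ratios of replicate 1 are to be read against 0.898 and not against 1. In bulk RNA, fewer cells of a type and less RNA per cell cannot be told apart.

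The ends of the beta coding sequences are shown because they encode the isotype tails and because they are also where reads can or cannot tell the genes apart. Each line gives the last 60 coding bases with the stop codon, 5′ to 3′, of 1 principal coding transcript per beta gene (GENCODE release 29, GRCh38). Capitals mark bases that differ from, or are inserted relative to, TUBB in a pairwise alignment.
TUBB3, chr16:89935745-89935804, plus strand: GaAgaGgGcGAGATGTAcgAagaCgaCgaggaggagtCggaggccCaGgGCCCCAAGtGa
TUBB2B, chr6:3224751-3224810, minus strand: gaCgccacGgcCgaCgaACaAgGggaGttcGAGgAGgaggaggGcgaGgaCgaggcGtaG
TUBB, chr6:30724338-30724397, plus strand: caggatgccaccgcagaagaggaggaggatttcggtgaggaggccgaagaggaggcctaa
TUBB2A, chr6:3153863-3153922, minus strand: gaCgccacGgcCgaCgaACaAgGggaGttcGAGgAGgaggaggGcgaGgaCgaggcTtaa
TUBB4B, chr9:137243497-137243556, plus strand: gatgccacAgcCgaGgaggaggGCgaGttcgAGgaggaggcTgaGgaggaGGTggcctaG
TUBB6, chr18:12326071-12326130, plus strand: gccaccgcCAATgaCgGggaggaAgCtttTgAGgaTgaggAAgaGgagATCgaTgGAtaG
TUBB4A, chr19:6495164-6495223, minus strand: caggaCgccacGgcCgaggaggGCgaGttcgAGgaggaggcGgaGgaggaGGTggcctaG

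Over these 60 bases TUBB3 differed most from TUBB, with 27 bases, and TUBB4A and TUBB4B least, with 14 each. The last 60 coding bases of the alpha genes are not printed. There TUBA1A differed from TUBA1B at 0 bases and TUBA1C at 18. Over the whole coding sequence TUBA1A was 97.2% identical to TUBA1B and 95.9% to TUBA1C, and TUBB2B was 98.1% identical to TUBB2A. TUBB3 was between 81.7% and 88.0% identical to the other beta members. The share of 100-base windows of a transcript that also occur in another alpha or beta tubulin gene, pseudogenes included, was 56.4% for TUBB2A, 46.2% for TUBB2B, 37.2% for TUBA1B and 18.3% for TUBA1A. It was 11.5% for TUBA1C, 5.15% for TUBB3, 5.10% for TUBB, 2.86% for TUBB4B and 0 for TUBB6 and TUBB4A. No source used here states the read length, and with 50-base windows the same shares ran from 0.993% for TUBB6 to 65.5% for TUBB2A. RSEM, the counting program that the submitters' processing notes name, divides reads that match several genes among them, so the split between TUBB2A and TUBB2B, and between TUBA1A and TUBA1B, is less certain than the level of TUBB3 or TUBB6.

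**Figure D1:**
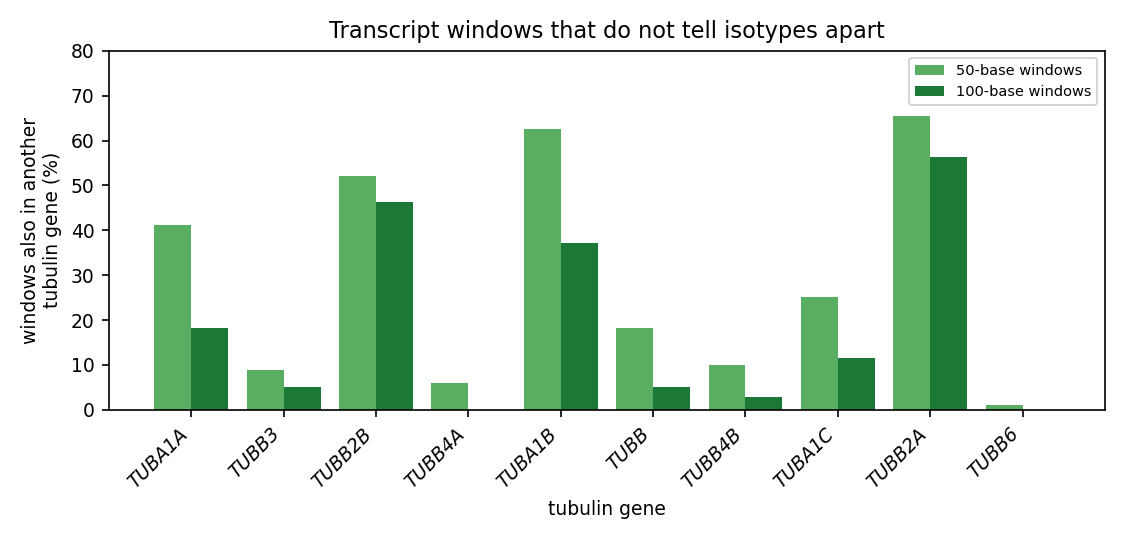
Bars give the percentage of 50-base and 100-base windows of each member's principal transcript that occur unchanged in another alpha or beta tubulin gene. TUBB2A, TUBB2B and TUBA1B share the most 100-base windows (56.4%, 46.2% and 37.2%), and TUBB6 and TUBB4A share none.

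Among neuron-linked genes, TUBA1A (ENSG00000167552.15, chromosome 12, 49184795 to 49189080, GRCh38), the main alpha tubulin of young neurons, had 1517, 1154 and 1106 TPM in replicates 1, 2 and 3, a mean of 1259 ± 225 (SD, n = 3, as for every ± over the libraries). Behind these levels stood 55311, 41998 and 31022 expected counts. TUBA1A was the third highest of the 10 members and held rank 124 among all genes by mean TPM.

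TUBB3 (ENSG00000258947.8, chromosome 16, 89921925 to 89936097), the class III beta tubulin whose antibody is a common stain for neurons, had 478, 324 and 323 TPM from 17910, 12126 and 9358 expected counts. TUBB2B (ENSG00000137285.11, chromosome 6, 3224277 to 3227653), a beta tubulin of migrating neurons and radial glia, had 438, 303 and 325 TPM from 19132, 13285 and 11051 expected counts. In replicate 1 TUBB3 stood at 1.48, TUBB2B at 1.39 and TUBA1A at 1.34 times the mean of the other libraries. For all 3 neuron-linked genes replicate 1 lay above replicates 2 and 3, which lay close together. A gene that overlaps TUBB3 and has no symbol in the files (ENSG00000198211.8, named after its values were seen) held 0, 0 and 3.23 expected counts, so almost no reads were assigned to it.

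TUBB4A (ENSG00000104833.12, chromosome 19, 6494319 to 6502848) was the lowest member, with 6.88, 2.78 and 1.42 TPM. Its expected counts were 301, 122 and 48.6 in replicates 1, 2 and 3, with Poisson 95% intervals of 268 to 337, 101 to 146 and 36.3 to 64.8. The intervals do not overlap, and they cover counting error only. The defining oligodendrocyte markers MBP, MAG, MOG and OLIG2 were below detection at means of 0.70, 0.057, 0.053 and 0.060 TPM. SOX10 (22.2 ± 7.0 TPM), which neural crest cells also use, was detected and had its highest level, 29.1 TPM, in replicate 1. The part of such cells in the TUBB4A level was not tested.

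Among general isotypes, TUBA1B (ENSG00000123416.15, chromosome 12, 49127782 to 49131395), the alpha tubulin of most dividing cells, was the highest member at 2764, 2711 and 2759 TPM, or 2745 ± 29.4 (SD, n = 3). TUBB (ENSG00000196230.14, chromosome 6, 30720352 to 30725422), the class I beta tubulin of most tissues, followed at 2140, 2118 and 2060 TPM, or 2106 ± 41.2. Their TPM hardly moved between libraries, with coefficients of variation of 1.07% and 1.96%, against a median of 14.8% over all detected genes. This flatness depends on the scale. On log2 CPM (counts relative to library size) with TMM scaling, which leaves out transcript length, replicate 1 lay 0.19 above the mean of the other libraries for both genes, while the median gene lay at -0.01.

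TUBB4B (ENSG00000188229.6, chromosome 9, 137241287 to 137243707), a broadly used beta tubulin that is also prominent in cilia, had 466, 414 and 419 TPM. TUBA1C (ENSG00000167553.17, chromosome 12, 49227926 to 49274600), the third alpha gene of the chromosome 12 cluster, had 290, 359 and 367 TPM and was lowest in replicate 1. Its log2 CPM was level at 7.77, 7.78 and 7.80, while the effective length used for it was 1016, 901 and 908 bases in replicates 1, 2 and 3. Its TPM in replicate 1 was 0.799 times the mean of the other libraries, beside 0.898 for the median detected gene.

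TUBB2A (ENSG00000137267.7, chromosome 6, 3153666 to 3157544), which is abundant in brain but was grouped with the general isotypes here, had 97.0, 99.4 and 63.7 TPM and was lowest in replicate 3. TUBB6 (ENSG00000176014.13, chromosome 18, 12307669 to 12329826), a class V beta tubulin of many non-neuronal cells, had 55.4, 102 and 85.2 TPM. It was lowest in replicate 1, at 0.593 times the mean of the other libraries, the opposite direction to the neuron-linked genes. Summed levels of neural crest and mesenchyme markers were lowest in replicate 1 too, and their part in the TUBB6 value was not tested.

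**Figure D2:**
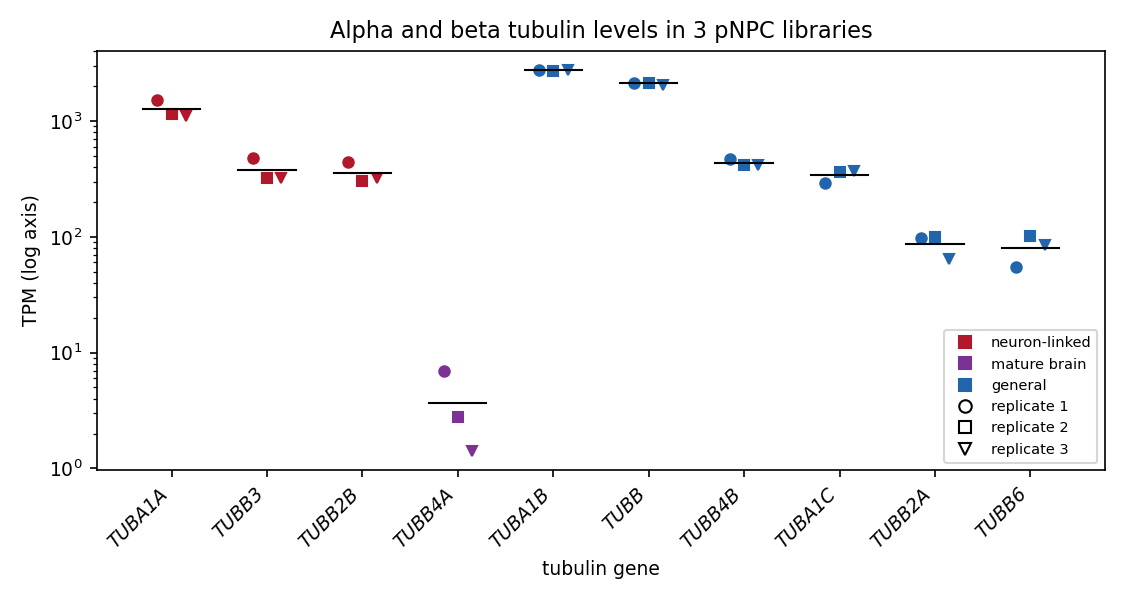
Each point is the TPM (log axis) of 1 tubulin gene in 1 of the 3 pNPC libraries, with the marker giving the replicate, the colour the class and the black line the mean. TUBA1B and TUBB lie near 2745 and 2106 TPM, TUBB4A lies below 7 TPM, and the 3 neuron-linked genes are each highest in replicate 1.

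The order by mean TPM was TUBA1B, TUBB, TUBA1A, TUBB4B, TUBB3, TUBB2B, TUBA1C, TUBB2A, TUBB6 and TUBB4A. Of the 9 neighbouring pairs in this order, 5 had ranges over the 3 libraries that did not overlap. The steps that stood clear of the spread were those from TUBA1B to TUBB (0.38 ± 0.03 on the log2 TPM scale), from TUBB to TUBA1A (0.76 ± 0.23), from TUBA1A to TUBB4B (1.53 ± 0.16), from TUBA1C to TUBB2A (1.99 ± 0.49) and from TUBB6 to TUBB4A (4.70 ± 1.51). TUBB4B, TUBB3, TUBB2B and TUBA1C formed a middle tier whose neighbours overlapped. TUBB3 lay above TUBB2B in 2 of 3 libraries, and TUBB2A lay above TUBB6 in 1 of 3.

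Within the alpha members TUBA1A made up 33.2%, 27.3% and 26.1% of summed TPM in replicates 1, 2 and 3, a mean of 28.9% ± 3.77 (SD, n = 3). TUBA1B made up 63.3% ± 2.48 and TUBA1C 7.84% ± 1.3. Within the beta members TUBB3 made up 13.0%, 9.63% and 9.87%, a mean of 10.8% ± 1.88, and TUBB2B 10.3% ± 1.47. TUBB made up 61.3% ± 2.77, TUBB4B 12.6% ± 0.24, TUBB2A 2.51% ± 0.52, TUBB6 2.37% ± 0.78 and TUBB4A 0.10% ± 0.07. One general gene therefore held most of the transcripts in each family. TUBA1B and TUBB together held 62.4% ± 2.60 of the summed TPM of all 10 genes.

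**Figure D3:**
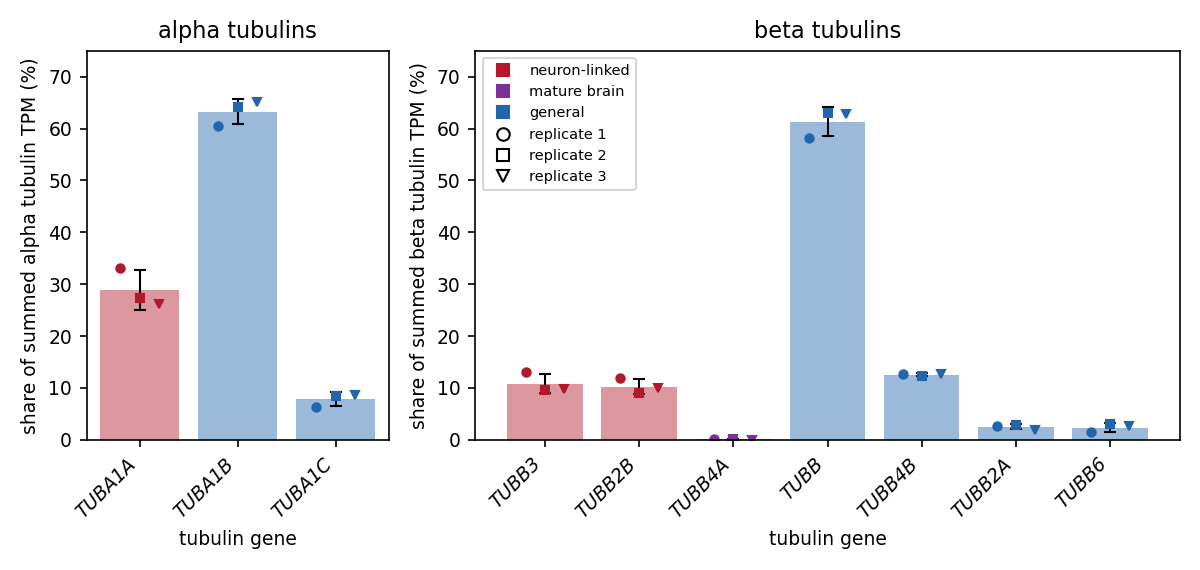
Bars give the mean share of each gene in the summed TPM of the 3 alpha members (left) and the 7 beta members (right), error bars the SD over 3 libraries and points the single libraries. TUBA1B (63.3%) and TUBB (61.3%) hold most of each family, and the neuron-linked TUBA1A, TUBB3 and TUBB2B have their largest shares in replicate 1.

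The 3 neuron-linked genes summed to 2433, 1781 and 1754 TPM in replicates 1, 2 and 3, against 5813, 5803 and 5753 TPM for the 6 general isotypes. The neuron-linked sum was thus the lower in every library, and the ranges did not overlap. The log2 ratio of the neuron-linked over the general sum was -1.26, -1.70 and -1.71, a mean of -1.56 ± 0.26 (SD, n = 3), which is 0.340 times. The exact two-sided sign-flip permutation test gave p = 0.25 (n = 3), the smallest p that 3 libraries allow, and 0.25 after Benjamini-Hochberg adjustment over the 2 ratios tested, so no threshold of 0.05 could be reached. The neuron-linked genes held 29.5%, 23.5% and 23.4% of the summed TPM of the 10 members. In TPM the general sum moved by 1.01 times between its highest and lowest library and the neuron-linked sum by 1.39 times. The level general sum depends on the scale. On log2 CPM, replicate 1 lay above the other libraries by a median of 0.19 for the general isotypes and 0.65 for the neuron-linked ones.

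The direction depended on summing, in which TUBA1B and TUBB weigh most. The mean of log2(TPM + 1) over the 3 neuron-linked genes exceeded that over the 6 general ones by 0.75, 0.09 and 0.25 in replicates 1, 2 and 3, a mean of 0.36 ± 0.35, the reverse direction, with p = 0.25 in the same exact permutation test. Beta isotypes alone gave a log2 ratio of sums of -1.91 ± 0.28 and alpha isotypes alone -1.31 ± 0.26. The 2 replicates other than replicate 1 gave -1.71 ± 0.01.

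The alpha members summed to 4571, 4224 and 4231 TPM, against 3681, 3363 and 3277 TPM for the beta members. The log2 ratio of alpha over beta was 0.31, 0.33 and 0.37, a mean of 0.34 ± 0.03, with p = 0.25 and adjusted p = 0.25 in the exact sign-flip permutation test. This direction depended on the length scaling. In expected counts alpha stood below beta, with a log2 ratio of -0.20 ± 0.02.

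Spread between libraries was tested over 17046 genes with an edgeR negative binomial fit on rounded expected counts, in which a gene is called when it varied more than genes of like abundance at a Benjamini-Hochberg adjusted p under 0.05. In this fit 265 genes were called, or 1.55% of those tested, and 0 of the 10 tubulin members. One member, TUBB4A, was under 0.05 before adjustment, and its edgeR adjusted p was 0.0742. The edgeR adjusted p was 0.767 for TUBB3, 0.995 for TUBB2B, 0.798 for TUBB2A and 1.00 for the other 6. The higher levels of the neuron-linked isotypes in replicate 1 could therefore not be told apart from the spread of genes of like abundance, which does not show that they were equal. The fit could rarely have called changes of this size. On simulated data it recovered 10% of genes with 1 library changed 2-fold. These 3 isotypes lay 0.60 to 0.74 log2 CPM above the other libraries in replicate 1, which is less than 2-fold. With DESeq2 size factors 0 members were called as well. Without the filter on low counts TUBB4A was called (edgeR adjusted p = 0.0268).

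On the log2 CPM scale of that fit, replicate 1 lay above the mean of the other libraries by 0.74 for TUBB3, 0.65 for TUBB2B and 0.60 for TUBA1A, and by 1.92 for TUBB4A. The median over the 6 general isotypes was 0.19, and the median over all genes tested was -0.01. In replicate 1, 7 of the 10 members had their highest TPM, against 25.5% of all detected genes. In replicate 1 the median over the 7 progenitor markers tested was 0.94. That over the 8 crest and mesenchyme markers was -0.78, and that over the 14 neuron markers tested was 0.91. The progenitor markers were split. SOX2, SOX1, HES1 and FABP7 lay at 1.01, 1.13, 1.47 and 0.94, but NES, VIM and MSI1 at -0.16, 0.16 and 0.17. Summed TPM of the progenitor list was 2411, 2516 and 2184 in replicates 1, 2 and 3, so it was not highest in replicate 1. VIM alone held 1899, 2113 and 1724 TPM of these sums, which therefore mostly follow this gene and not the list. In replicate 2, against the mean of its other libraries, the medians of the progenitor, crest and neuron markers were -0.64, 0.84 and -0.68. In replicate 3 they were -0.19, -0.06 and -0.15. The 3 deviations of a gene cancel out, so opposite signs in replicates 1 and 2 are not separate observations. Of the 14 neuron markers 3 were called, beside 1.55% of all genes tested. These were NEFM, a neurofilament gene, at 485, 241 and 176 TPM (edgeR adjusted p = 0.00436), the stathmin STMN2 at 14.4, 3.61 and 6.42 TPM (0.00388) and the RNA-binding protein gene ELAVL4 at 8.26, 2.03 and 5.06 TPM (0.00548), named here after their values were seen. Called too were the mesenchyme genes PDGFRA at 4.92, 18.1 and 19.0 TPM (edgeR adjusted p = 0.000463) and COL1A1 at 4.62, 18.3 and 12.9 TPM (0.0106), both lowest in replicate 1. The progenitor gene HES1 was called at 35.5, 13.3 and 15.8 TPM (0.0110), highest in replicate 1. The part of these markers in the tubulin values was not tested. STMN2, ELAVL4 and TUBB2B were lowest in replicate 2, NEFM and TUBA1A in replicate 3, and TUBB3 was level in these libraries.

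**Figure D4:**
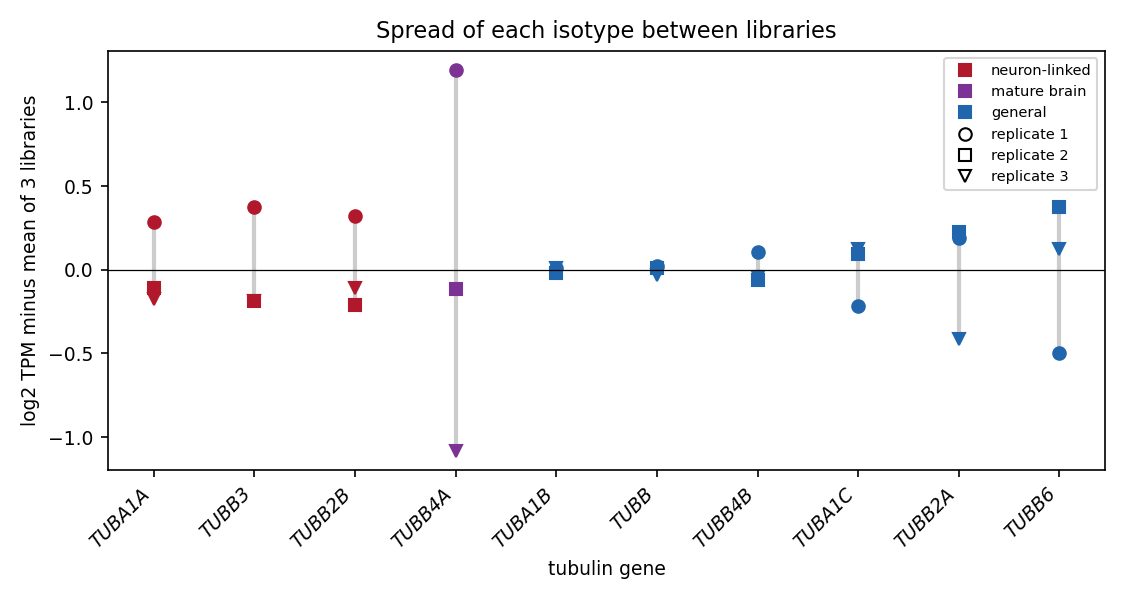
For each tubulin gene the points give log2 TPM in each library minus the mean of the 3 libraries, with the marker giving the replicate, the colour the class and the grey line the range. Replicate 1 is highest for all 3 neuron-linked genes and TUBB4A, while TUBA1B and TUBB hardly leave 0.

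The genes whose centred log2 TPM lay nearest to that of TUBB3 over the 3 libraries, of 3123 other genes with a mean of at least 50 TPM, were RNF5, a ubiquitin ligase gene (Euclidean distance 0.012), TAF10, of the general transcription factor TFIID (0.018), and FHL1, of a LIM domain protein (0.028). RNF5 had 123, 82.8 and 82.2 TPM. For TUBA1B they were ARPC5L (0.0040), IDH2 (0.0043) and DNTTIP2 (0.0045). With 3 libraries such nearness is a description of values.

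Promoters of the neuron-linked genes and of the highest general alpha and beta gene are shown because these are the genes that the class comparison turns on. Each line gives the 150 bases before the transcription start, 5′ to 3′ on the gene's strand, from RefSeq (GRCh38.p14). For TUBB3 and TUBB, with 2 starts each in the table, the start nearest to that of the principal transcript was taken. Capitals mark matches, on either strand and allowing overlaps, to the core of the promoter element that binds the TATA-binding protein, TATAA, to the element bound by NF-Y, CCAAT, or to the element bound by Sp1 and related factors, GGGCGG.
TUBB3, chr16:89923192-89923341, plus strand: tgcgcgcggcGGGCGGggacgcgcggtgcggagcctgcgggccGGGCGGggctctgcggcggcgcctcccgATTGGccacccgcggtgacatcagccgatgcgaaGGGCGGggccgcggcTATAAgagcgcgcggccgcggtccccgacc
TUBB2B, chr6:3227654-3227803, minus strand: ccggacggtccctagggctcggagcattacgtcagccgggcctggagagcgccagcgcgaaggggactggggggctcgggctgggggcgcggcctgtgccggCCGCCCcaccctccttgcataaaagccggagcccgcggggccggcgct
TUBA1A, chr12:49189081-49189230, minus strand: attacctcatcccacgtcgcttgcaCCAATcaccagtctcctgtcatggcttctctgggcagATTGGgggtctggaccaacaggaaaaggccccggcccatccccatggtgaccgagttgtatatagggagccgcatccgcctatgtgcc
TUBA1B, chr12:49131396-49131545, minus strand: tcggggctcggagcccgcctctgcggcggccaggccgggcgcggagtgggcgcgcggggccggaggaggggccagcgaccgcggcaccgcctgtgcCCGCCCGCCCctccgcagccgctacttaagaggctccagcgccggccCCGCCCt
TUBB, chr6:30720202-30720351, plus strand: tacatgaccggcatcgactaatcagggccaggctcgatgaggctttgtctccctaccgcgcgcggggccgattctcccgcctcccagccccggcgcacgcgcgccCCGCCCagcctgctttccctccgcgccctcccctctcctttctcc

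The TUBB3 window held 1 TATAA beginning 30 bases before the start, 1 CCAAT and 3 GGGCGG matches. TUBB2B held 1 GGGCGG match, TUBA1A 2 CCAAT matches, TUBA1B 3 GGGCGG matches and TUBB 1 GGGCGG match. Among 35116 RefSeq promoter windows of the same length, 12.1% held TATAA, 23.5% CCAAT and 36.8% GGGCGG. No one of the 3 motifs occurred in all 3 neuron-linked windows. Only exact matches were searched, so a window without a match may still hold a variant of the element. The TUBA1A window had a GC content of 58.0%, the lowest of the 5, and the TUBA1B window the highest at 82.0%.

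Of 9 other alpha and beta tubulin genes only TUBB8, a beta tubulin known from oocytes, at 2.53 ± 0.87 TPM and TUBA8 at 1.89 ± 0.06 TPM were detected. TUBA4A stood at 0.84 ± 0.17, TUBA3D at 0.41 ± 0.19, TUBB8B at 0.32 ± 0.12 and TUBB1, the platelet beta tubulin, at 0.14 ± 0.07 TPM. No library had a count for TUBA3C or TUBAL3, and 3 counts per library, the limit that a count of 0 allows, would be 0.117 and 0.107 TPM, while TUBA3E had 0.03 TPM in replicate 1 and 0 in the others. Among 35 pseudogenes with symbols of the forms TUBAP, TUBA5P, TUBBP, TUBB2BP, TUBB3P, TUBB4AP and TUBB4BP, 26 had 0 counts in all libraries. The others of this set were led by TUBBP1 at 1.25 ± 0.22, TUBAP2 at 0.78 ± 0.26 and TUBA5P at 0.36 ± 0.27 TPM. These 35 together held 2.57, 2.44 and 3.32 TPM, at most 0.0442% of the members' sum. The set leaves out copies of the alpha 3, alpha 4 and other beta genes, among them TUBA3FP, named after its values were seen, which alone had 4.08, 4.18 and 5.80 TPM. The gamma tubulin TUBG1, which nucleates microtubules, stood at 101 ± 3.56 TPM, above its copy TUBG2 at 12.6 ± 1.77, the epsilon tubulin TUBE1 at 19.6 ± 3.28 and the delta tubulin TUBD1 at 16.7 ± 1.03 TPM.

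New tubulin is folded by the CCT chaperonin, to which prefoldin hands it, and by cofactors that join alpha to beta. All 14 chaperonin and prefoldin genes were detected, with a median of 8.15 ± 0.05 log2(TPM + 1) and PFDN5, CCT5 and CCT3 highest at 608 ± 34.8, 498 ± 25.7 and 460 ± 23.3 TPM. All 7 cofactor genes were detected, with a median of 6.49 ± 0.12. The beta tubulin cofactor TBCA led at 525 ± 27.9 TPM, the alpha tubulin cofactor TBCB followed at 195 ± 6.06 and the GTPase gene ARL2 at 140 ± 11.8 TPM, and TBCEL was lowest at 6.26 ± 1.91 TPM. Of the factors that destroy tubulin mRNA when free dimers are in excess, TTC5, which reads the emerging tubulin peptide, stood at 18.4 ± 0.50, SCAPER at 7.38 ± 1.11, CNOT11 at 34.5 ± 1.26 and CNOT1 at 183 ± 27.9 TPM. The edgeR fit called 0 genes of these 3 lists.

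Enzymes that modify the tubulin tails were present in part. For the removal and return of the last tyrosine all 5 genes were detected. The ligase TTL stood at 33.8 ± 5.04 TPM, the vasohibins VASH1 and VASH2 at 32.8 ± 6.87 and 6.67 ± 2.31, their partner SVBP at 92.4 ± 6.38 and MATCAP1 at 33.2 ± 4.49 TPM. Of 13 glutamylation and glycylation genes 8 were detected, led by TPGS2 at 166 ± 1.71, TTLL4 at 55.0 ± 8.31 and TTLL5 at 24.4 ± 3.46 TPM. TTLL6 stood at 0.08 ± 0.05 TPM, and TTLL8 had 0 counts (up to 0.120 TPM). Of 6 deglutamylases 3 were detected, AGBL5 at 66.6 ± 4.36, AGTPBP1 at 31.6 ± 6.91 and AGBL3 at 1.81 ± 0.41 TPM. The acetyltransferase ATAT1 stood at 34.6 ± 4.65 TPM, and the deacetylases HDAC6 and SIRT2 at 58.8 ± 6.75 and 25.3 ± 0.89 TPM. The edgeR fit called 0 genes of these lists.

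Among proteins that bind tubulin or microtubules, the dimer-sequestering STMN1 stood at 1982 ± 79.3 TPM, between TUBB and TUBA1A, far above the neuronal stathmins STMN3 at 86.5 ± 5.84, STMN2 at 8.15 ± 5.60 and STMN4 at 1.79 ± 0.67 TPM. All 8 severing enzyme genes were detected, with FIGNL1 at 27.3 ± 9.18 and FIGNL2 at 27.1 ± 3.87 TPM not told apart at the top. All 20 microtubule-associated protein genes were detected, led by the plus-end protein MAPRE1 at 162 ± 5.01 and the spindle proteins PRC1 at 134 ± 10.8 and TPX2 at 126 ± 13.0 TPM. In replicate 1, 13 of these 20 had their lowest TPM, while the median over the list on the length-free log2 CPM scale was -0.11. The count of 13 has no share over all detected genes beside it. STMN2 was the 1 gene of the stathmin, severing and microtubule-associated lists that the edgeR fit called. Proliferation markers were detected for 8 of 8 genes, with a median of 7.28 ± 0.11 log2(TPM + 1), and 0 were called.

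**Figure D5:**
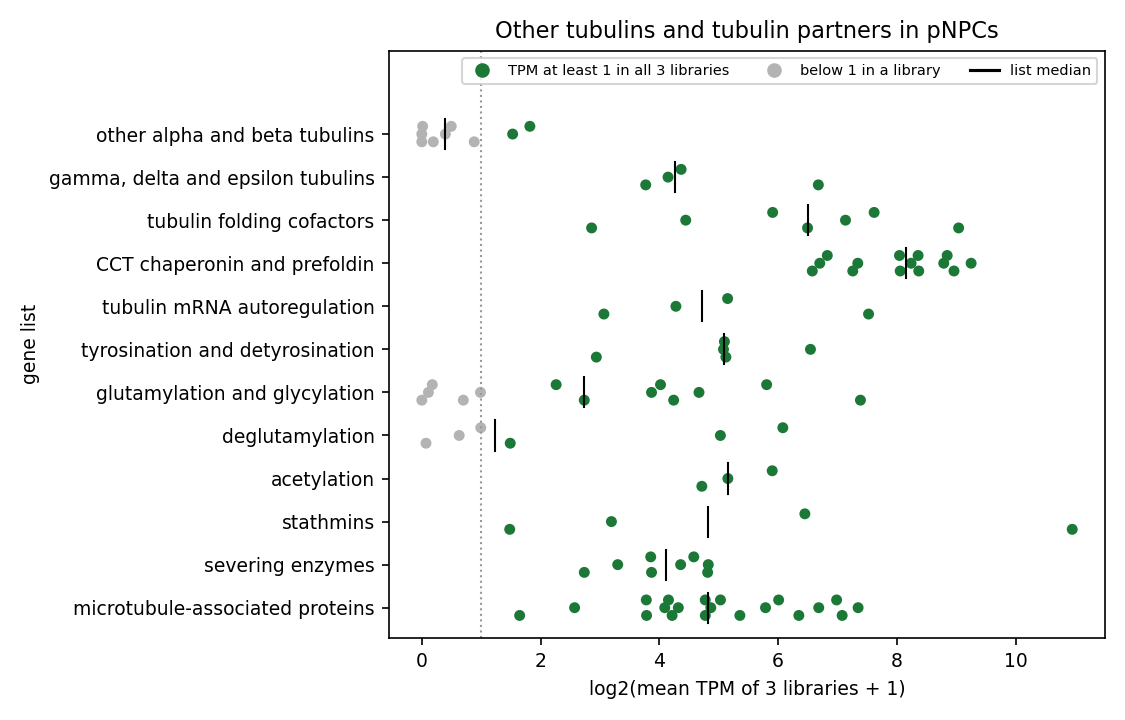
Each point is 1 gene at log2(mean TPM of 3 libraries + 1), in rows by list, green where detected and grey where below 1 TPM in a library; black lines are list medians and the dotted line is 1 TPM. Chaperonin and prefoldin genes lie highest as a list, STMN1 is the highest single gene, and 7 of the 9 other alpha and beta tubulins are grey.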

How the data were processed

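RNA-seq of 3 wild-type pNPC replicates was analysed as 1 group, as the titles give it. RSEM 1.3.1, STAR 2.7.11a, Trim Galore 0.6.10 and the build GRCh38 come from the submitters' processing notes, which give no role or order. No source used here states the annotation release, strand or read length. Per the file headers, the deposited values are an expected count (estimated reads per gene, not normalized), TPM scaled by the authors for effective length and library, and FPKM, whose shares equal those of TPM and which was not used further.

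Members and gene lists were chosen with earlier results of these data known. Named were all members, each list's 3 highest and up to 2 lowest undetected genes (short lists in full), the 3 genes nearest in pattern to TUBB3 and TUBA1B, and the 3 highest pseudogenes. All 153 genes of the 20 lists were found in the files. Some listed items and sequences are not reported here. Printed gene coordinates are 1-based, from RefSeq for GRCh38.p14.

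Spread was tested with edgeR 4.0.16 (R 4.3.3): expected counts rounded to whole numbers, TMM, filterByExpr, an intercept-only fit and the residual deviance, at trended dispersion, compared with a chi-square distribution on 2 degrees of freedom. Tested on simulated data (16837 genes) it recovered 10%, 64%, 92% and 92% of genes with 1 library changed 2-, 4-, 8- and 16-fold and called 2 unchanged genes. With dispersions that varied between genes (16815 genes) it recovered 10%, 78%, 90% and 94% and called 35 unchanged genes. Other values used Python 3.11.15, pandas 2.3.3 and scipy 1.17.1. Alternatives included DESeq2 1.42.0 size factors and removal of a lowess trend (fraction 0.3) on effective length.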

Additional observations from a re-analysis of the deposited data

Results flagged for a closer look

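TUBA1B-AS1 (ENSG00000258017.3), an antisense gene that no comparison above uses, was looked at after its values were seen, because it had counts in every library. It had 54.4, 303.6 and 3.15 TPM from 929, 2830 and 43.6 expected counts in replicates 1, 2 and 3. Its spread was the largest of all 17046 genes tested (edgeR adjusted p = 5.849e-26). In GENCODE release 29 it lies on the plus strand, TUBA1B on the minus strand, and 72.4% of its 1632 exonic bases fall in exons of the principal TUBA1B transcript, so without strand the reads of both cannot be told apart. Its counts equalled 0.940%, 2.93% and 0.0573% of those of TUBA1B, whose own TPM was nearly level.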

How the results depend on the processing

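The log2 ratio of neuron-linked over general sums stayed between -1.91 and -1.31 in every alternative that kept sums, and leaving out 1 replicate gave -1.71 to -1.48. It reversed with the mean over members, to 0.36 at a pseudocount of 1 and 0.37 at 0.1, since this mean weights each gene equally. The alpha over beta ratio reversed in expected counts, to -0.20, and was 0.26 with the length trend removed. The TUBB3 share of beta transcripts was 8.01% in expected counts. Leaving out 1 replicate each gave 95 to 117 called genes in place of 265, with fewer samples in each fit (117 without replicate 1, 96 without replicate 2 and 95 without replicate 3), and 0 members in each case. Without the filter on low counts 1 member, TUBB4A, was called; its edgeR adjusted p ran from 0.0268 to 1 over all alternatives and was 1 without replicate 1. With the length trend as an offset 4 members had an unadjusted p under 0.05 and 0 were called. At a TPM minimum of 5, 9 members were detected. The other counts stayed within 1.5 times of their value. No paired analysis was possible because the samples form 1 group. Among the members depth limits TUBB4A most, though its Poisson intervals did not overlap between libraries. Having 3 libraries limits every test.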
